A study of Mus musculus with 15 samples.

Results

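Genes of catecholamine synthesis, transport and regulation were followed across the series, namely Th, Ddc, Dbh, Slc6a2, Slc6a3, Slc18a2 and Phox2a, 7 of the 21889 genes counted. They were taken by name and chosen by the measured levels of Th, which is among the largest falls after E15.5 in these libraries, so every comparison with E15.5 gives these genes' values as a description without a test. The series holds 15 poly(A) RNA-seq libraries from mouse cerebellum, 3 in each of 5 groups. Cerebellar granule neuron precursors (GNP) were taken from Math1-GFP mice at the embryonic age E15.5 and from wild-type (WT) mice at postnatal days 1, 7 and 14 (P1, P7 and P14). Medulloblastoma cells (MB), from a cerebellar tumour of granule neuron precursor origin, came from Ptch1 heterozygous mice, with no age in the labels. All cells were purified by Percoll fractionation, and at E15.5 the genotype label and the age cannot be told apart. The labels do not say whether the 3 libraries of a group came from separate animals, so p-values measure the spread between these libraries, which may be technical.

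Catecholamines are made from tyrosine. Tyrosine hydroxylase (Th) makes L-DOPA in the rate-limiting step, with tetrahydrobiopterin as its cofactor, aromatic L-amino acid decarboxylase (Ddc) turns L-DOPA into dopamine, and dopamine beta-hydroxylase (Dbh) turns dopamine into noradrenaline. The vesicular transporter Slc18a2 (VMAT2) loads the amines into vesicles, and Slc6a2 and Slc6a3 take noradrenaline and dopamine back up from outside the cell. Phox2a is a homeodomain factor of noradrenergic neurons. The cerebellum receives noradrenergic fibres from the locus coeruleus, and Th is also known in mouse Purkinje cells, whereas granule neurons use glutamate.

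The sequence upstream of Th is shown because it holds a full cyclic AMP response element (CRE), the 8-base binding site of CREB family factors, which is well known in this promoter. The 250 bases before the RefSeq start of Th lie at chr7:142899996-142900245 on the minus strand of GRCm38.p6, with the CRE in capitals.

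Th: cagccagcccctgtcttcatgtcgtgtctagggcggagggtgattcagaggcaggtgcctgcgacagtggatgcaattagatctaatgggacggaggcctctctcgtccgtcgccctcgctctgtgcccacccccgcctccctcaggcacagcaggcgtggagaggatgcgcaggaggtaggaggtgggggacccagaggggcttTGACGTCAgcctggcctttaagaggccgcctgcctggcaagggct

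The first base of the CRE lies 45 bases before the start. The same 8 letters occur in the window of Slc18a2, where their first base lies 4 bases before the start, at chr19:59260863-59260892 on the plus strand of GRCm38.p6 (30 bases shown, CRE in capitals).

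Slc18a2: agcgctgtccgTGACGTCAgagccggactg

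The search used the letters TGACGTCA, which read the same on both strands, in windows of 300 bases (250 before to 50 after each start). Of the 7 genes, 6 had a window, and 2 of these held the element, against 1.79% of the 32851 windows and 2.03% of the 27025 genes in the RefSeq table. A match describes the letters and is not a measured binding site. Levels of these 2 genes across the libraries, given next, did not follow one pattern.

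Th was present at E15.5, low at the 3 postnatal ages (11 to 28 reads per group), and high in MB. Counts in E15.5 replicates 1 to 3 were 236, 73 and 468 reads, or 10.3, 6.10 and 12.3 CPM (reads per 1000000 reads of the TMM-scaled library). At P1 the libraries held 2, 4 and 5 reads (0.0858, 0.155 and 0.188 CPM), at P7 they held 4 each (0.117, 0.110 and 0.154 CPM), and at P14 they held 10, 6 and 12 (0.337, 0.181 and 0.401 CPM). The MB libraries held 306, 842 and 452 reads, or 12.1, 20.6 and 18.1 CPM. No E15.5 or MB library overlapped a postnatal one. Group means were 16.9 ± 4.33 CPM in MB, 9.56 ± 3.16 at E15.5, 0.306 ± 0.113 at P14, 0.143 ± 0.0523 at P1 and 0.127 ± 0.0236 at P7 (SD, n = 3 here and below). In that order, MB and E15.5 overlapped (MB replicate 1 lay below E15.5 replicate 3), as did P14 and P1, and P1 and P7. The mean at E15.5 was 66.8 times that at P1, 75.2 times that at P7 and 31.2 times that at P14. With 11 reads in all at P1, the 95% Poisson interval of the pooled P1 level ran from 0.0726 to 0.260 CPM. Such intervals cover counting error only.

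**Figure D1:**
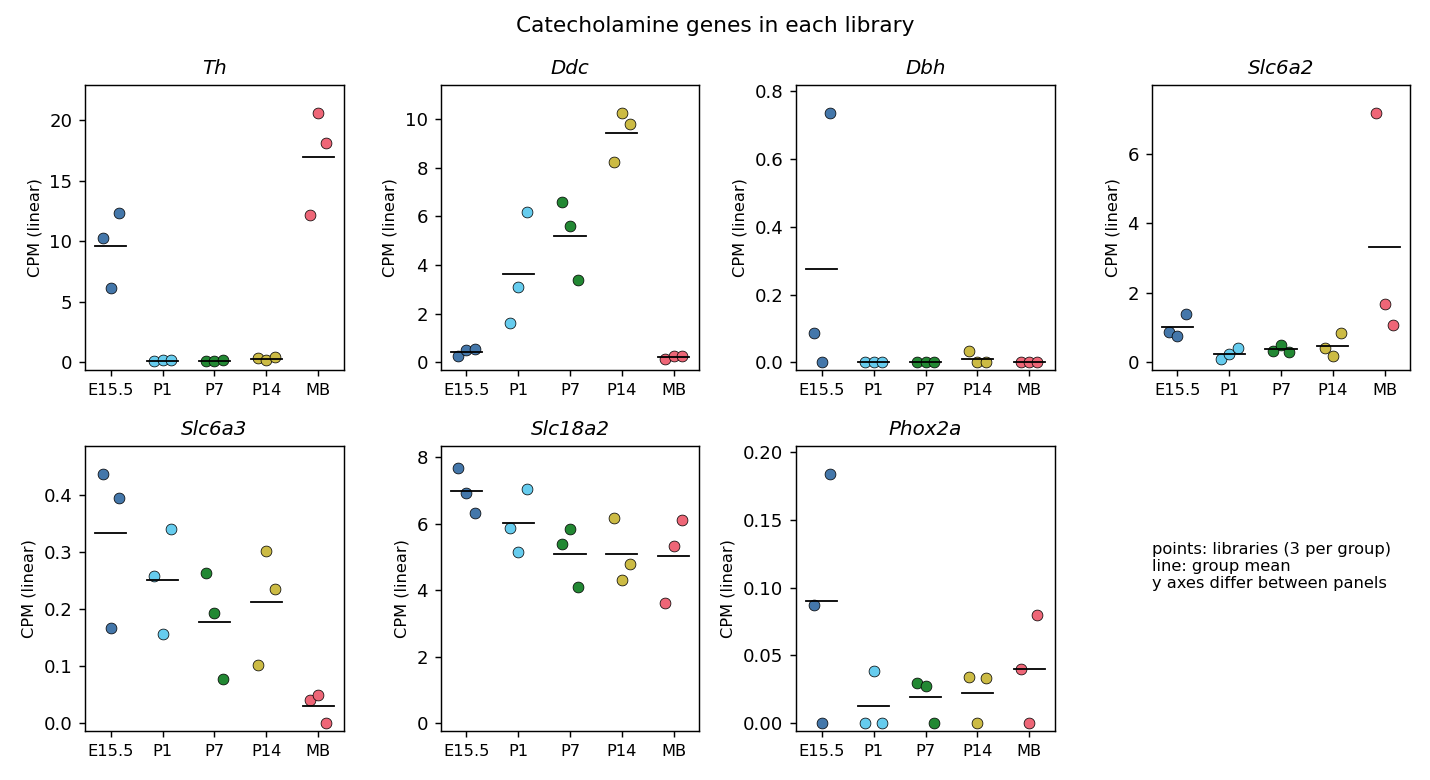
Level of each of the 7 genes in the 15 libraries, in CPM on linear axes that differ between panels; points are libraries and lines are group means. Th is at 6.10 to 12.3 CPM at E15.5 and 12.1 to 20.6 CPM in MB, while Ddc is highest at P14 and Slc18a2 stays between 3.61 and 7.68 CPM in every library.

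Ddc ran the other way. It stood at 0.262, 0.501 and 0.551 CPM in the E15.5 libraries, 1.63, 3.10 and 6.18 at P1, 6.61, 5.60 and 3.39 at P7, 8.23, 10.2 and 9.79 at P14, and 0.119, 0.269 and 0.280 in MB. The 2 groups with the most Th therefore had the least Ddc, and no library of either reached the lowest postnatal one. The P14 libraries lay above all others, P7 and P1 overlapped, and E15.5 and MB overlapped. Against E15.5, the mean was 8.30 times as high at P1, 11.9 times at P7 and 21.5 times at P14.

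Dbh was close to absent. Its E15.5 libraries held 2, 0 and 28 reads, so that replicate 3 carried nearly all of the signal at 0.735 CPM. One read was counted at P14 replicate 1, and none in any P1, P7 or MB library, where 0 reads over a group allows up to 0.0397, 0.0311 and 0.0329 CPM (3 reads over the group). The later enzyme Pnmt, which makes adrenaline, had 25 reads at E15.5, all in replicates 1 and 3, none at P1 or in MB, 1 at P7 and 3 at P14.

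The vesicular transporter Slc18a2 changed little between the groups. Its group means were 6.98 ± 0.675 CPM at E15.5, 6.03 ± 0.954 at P1, then 5.10 ± 0.915 at P7, 5.09 ± 0.967 at P14 and 5.02 ± 1.28 in MB, and each group overlapped its neighbours in this order. The libraries ranged from 3.61 CPM in MB replicate 1 to 7.68 CPM in E15.5 replicate 1.

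The noradrenaline transporter Slc6a2 was low, with E15.5 values of 0.872, 0.752 and 1.39 CPM. The P1 libraries stood at 0.0858, 0.233 and 0.414 CPM, the P7 libraries at 0.321, 0.497 and 0.308, and the P14 libraries at 0.405, 0.181 and 0.836. In MB the values were 7.18, 1.69 and 1.08 CPM, from 181, 69 and 27 reads. E15.5 lay above all P1 and P7 libraries but overlapped P14 and MB, and MB replicate 1 stood far above the other MB libraries. The read count of its shorter transcript was 30.5% of that of the longer one at E15.5 and 63.2% at P1. It was 37.8% at P7, 65.1% at P14 and 48.4% in MB. The longer transcript had from 19 reads at P1 to 279 in MB.

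The dopamine transporter Slc6a3 had 27 reads over the E15.5 libraries, 19 at P1, then 18 at P7, 20 at P14 and 3 in MB. Its highest library was E15.5 replicate 1 at 0.436 CPM, and the ages overlapped. The 18 reads at P7 against 3 in MB gave a scaled ratio of 5.67 with an exact 95% interval of 1.66 to 30.1, for counting error only.

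Phox2a could not be read with confidence. The gene table gave it 9 reads at E15.5, 1 at P1, then 2 at P7, 2 at P14 and 3 in MB. It shares 534 exon bases with Inppl1 on the opposite strand, and the transcript table, which counts a read for each transcript it covers, gave it 15 to 231 reads per library.

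Levels of different genes were set side by side per length, as RPKM (CPM divided by the kilobases of the longest spliced transcript). At E15.5 the mean level was 5.23 RPKM for Th, 1.84 for Slc18a2, 0.225 for Ddc, 0.166 for Slc6a2, 0.107 for Dbh and 0.0962 for Slc6a3. At P14 the order was Ddc at 4.84 RPKM, Slc18a2 at 1.34 and Th at 0.168. In MB it was Th at 9.26 RPKM, Slc18a2 at 1.32, Slc6a2 at 0.546 and Ddc at 0.114. The enzymes of the first and second steps thus changed places between E15.5 and P14, and stood in the embryonic order in MB.

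**Figure D2:**
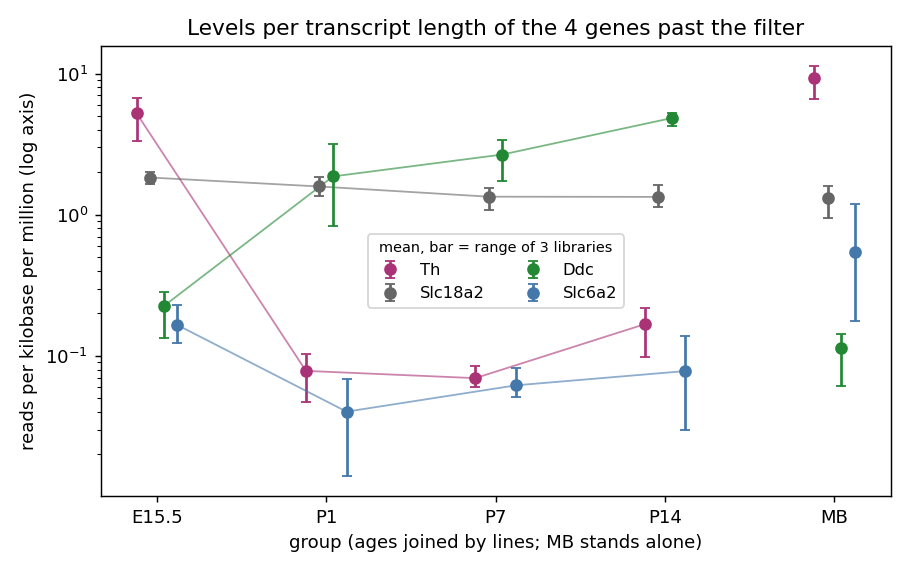
Mean level in RPKM (log axis) of Th, Slc18a2, Ddc and Slc6a2 by group, with bars for the range of 3 libraries; lines join the ages and MB stands alone. Th falls from 5.23 RPKM at E15.5 to 0.0782 at P1 and stands at 9.26 in MB, while Ddc runs from 0.225 at E15.5 to 4.84 at P14 and 0.114 in MB.

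MB against P7 and P14 against P1 were tested with edgeR's quasi-likelihood test, adjusted over 15259 genes (FDR). Of the 7 genes, 4 passed the filter on low counts (Th, Ddc, Slc6a2 and Slc18a2), and the other 3 have values only. The low values of Th at P1, P7 and P14 entered its choice, so Th is given without a test here too, and the MB libraries did not enter it. In MB against P7, 34.5% of all genes tested were called at an FDR under 0.05, 13.7% higher and 20.7% lower. The fitted log2 difference of Th was 7.03, with all 3 MB libraries above all P7 libraries. Ddc was lower in MB, at -4.50 on the log2 scale (SE 0.52, FDR 9.33e-06), also with no overlap. Slc6a2 was higher by 3.11 (SE 0.71, FDR 0.00305), and without MB replicate 1 by 1.87 (FDR 0.0171). Slc18a2 did not pass, at -0.02 (SE 0.26, FDR 0.957). Of the 3 genes tested, 1 was thus called higher, 1 lower and the vesicular transporter was not called.

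In P14 against P1, 8.94% of all genes were called, 3.63% higher and 5.31% lower, and none of the 3 genes passed. The fitted log2 difference of Th was 1.05, from 11 reads at P1 and 28 at P14. The others were at 1.37 for Ddc (SE 0.42, FDR 0.0538), 0.91 for Slc6a2 (SE 0.79, FDR 0.488) and -0.25 for Slc18a2 (SE 0.26, FDR 0.583), all by edgeR. Ddc lay at the threshold: DESeq2 gave it an adjusted p of 0.015, and leaving out P1 replicate 3 gave 1.99 with an edgeR FDR of 0.00484, in a range of 0.00484 to 0.229 over the libraries left out.

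The other genes of the pathway were taken as 53 genes in 5 roles, of which 45 were tested. In P1 against E15.5, where 46.3% of all genes were called (25.4% higher, 20.9% lower), 14 of the 45 were higher and 9 lower, with a median log2 change of 0.03, the same as over all genes (0.03). P7 and P14 were set against the same E15.5 libraries. At P7, 14 were higher and 14 lower, where 37.8% of all genes were called (21.6% higher, 16.2% lower). At P14, 15 were higher and 12 lower, where 50.9% of all genes were called (26.7% higher, 24.2% lower). The called share of the pathway genes was thus 51.1% for P1, 62.2% for P7 and 60% for P14. In P14 against P1, 1 was higher and 6 were lower, a called share of 15.6% against 8.94% of all genes.

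In cofactor synthesis, 2 of 8 genes were lower at P1 and none higher, a called share of 25% against 46.3% of all genes. Gch1, which catalyses the first and rate-limiting step of tetrahydrobiopterin synthesis, stood at 10.7, 10.5 and 17.9 CPM at E15.5 and at 2.06, 2.13 and 2.15 CPM at P1. It fell by 2.63 on the log2 scale (SE 0.30, edgeR FDR 7.89e-06). Pts, the next enzyme, fell from 34.1 ± 12.9 to 9.29 ± 2.35 CPM (log2 -1.88, SE 0.42, edgeR FDR 0.00209). Unlike Th, neither was high in MB. Gch1 stood at 1.20 ± 0.119 CPM at P7 and 1.03 ± 0.195 in MB (log2 -0.22, SE 0.30, edgeR FDR 0.614), and Pts at 9.80 ± 4.05 and 9.53 ± 5.83 CPM (log2 -0.04, edgeR FDR 0.961). That the change of Gch1 in MB differs from that of Th was not tested.

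Among enzymes and transporters, 2 of 5 were higher and 1 lower at P1, a called share of 60% against 46.3% of all genes. Moxd1, a relative of Dbh, rose from 0.127 ± 0.0720 to 14.7 ± 7.48 CPM (log2 6.63, and 7.30 without E15.5 replicate 3), and the low-affinity transporter Slc22a3 from 0.111 ± 0.0487 to 1.03 ± 0.388. Slc29a4, a plasma membrane monoamine transporter, fell from 144 ± 6.98 to 64.8 ± 8.01 CPM. Of 6 breakdown genes, 3 were higher and none lower, a called share of 50%. The higher ones were Aldh1a1 (log2 6.92, from 8 reads at E15.5, and 5.23 without P1 replicate 3), Maob (1.87) and Maoa (1.44, from 27.5 ± 6.73 to 74.7 ± 0.914 CPM).

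Of 11 receptors, 4 were higher and 2 lower at P1, a called share of 54.5% against 46.3% of all genes. The higher ones included the adrenergic receptors Adrb1 at log2 3.51 (SE 0.48) and Adra2b at 3.13 (SE 0.72), the latter at 3.85 without E15.5 replicate 1 and 2.46 without E15.5 replicate 3. The dopamine receptors Drd1 and Drd2 were the lower ones, at -1.71 (SE 0.39) and -1.61 (SE 0.38). Drd1 stood at 2.58 ± 0.328 CPM at E15.5 and 0.784 ± 0.158 at P1.

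Of 15 transcription factors, 5 were higher and 4 lower at P1, a called share of 60% against 46.3% of all genes. The lower ones included Lmx1a (-1.94) and En1 (-1.80). Gata2 (3.13) and Isl1 (3.04) rose, although the call of Isl1 (edgeR FDR 0.0484) was lost in 5 of the 6 fits that left out 1 library, all but the one without P1 replicate 3. Nr4a2, a regulator of Th in midbrain dopaminergic neurons, rose by 1.35 (SE 0.47, edgeR FDR 0.0272), from 9.71 ± 5.10 to 24.4 ± 18.4 CPM while Th was near 0. This call was lost without E15.5 replicate 1, E15.5 replicate 3 or P1 replicate 3, with log2 values down to 0.54 and an FDR of up to 0.291. Gata3 was not called (-0.09, edgeR FDR 0.888), and Hand2 had 0 reads in every library.

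In MB against P7, 4 of the 45 pathway genes were higher and 16 lower, a called share of 44.4%. Of all genes, 34.5% were called, 13.7% higher and 20.7% lower. The median log2 change was -0.84 for the pathway genes against 0.02 over all genes. The higher pathway genes were Foxa2, Isl1, Spr and Slc29a4. Foxa2, a factor of floor plate and midbrain dopaminergic cells, had 0 reads at P7 and 4.76, 4.15 and 9.29 CPM in MB, at least 184-fold higher (floor of 3 reads over the P7 group). Isl1 was uneven, at 0, 6.38 and 34.2 CPM in MB replicates 1 to 3 against 0.128 ± 0.105 at P7 (log2 6.62, SE 1.41, edgeR FDR 0.00183), with a log2 of 4.57 without MB replicate 3 and 7.57 without P7 replicate 2. Spr, the last enzyme of tetrahydrobiopterin synthesis, was higher by 1.28 (edgeR FDR 0.0243), a call lost in 5 of the 6 fits that left out 1 library, all but the one without MB replicate 1. Slc29a4 was higher by 0.65 (SE 0.16).

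The lower genes lay in every role. Tfap2b (-10.40) and Lmx1a (-2.79) were among the 4 lower transcription factors, and Adra2c (-8.16), Adra1a (-3.20) and Adra2b (-2.28) led the 6 lower receptors. Adra2c stood at 22.3 ± 5.78 CPM at P7 and 0.0570 ± 0.0987 in MB, where all of its 7 reads were in replicate 2. Without P7 replicate 3 Lmx1a was at -2.17, without MB replicate 2 Tfap2b was at -11.37, and without MB replicate 3 the cofactor gene Pcbd1 was at -1.84. Moxd1 (-3.08) and Cyb561 (-2.61), which carries electrons into amine vesicles, were the lower genes of the transporter role. The breakdown genes Aldh2 (-1.58), Rnls (-1.03) and Maoa (-0.67) and Pcbd1 (-1.24) were lower too, and the calls of Rnls, Maoa, Pcbd1 and Adra2b were each lost in 4 of the 6 fits that left out 1 library. Gata3 (-0.30) and Nr4a2 (-0.22) were not called.

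**Figure D3:**
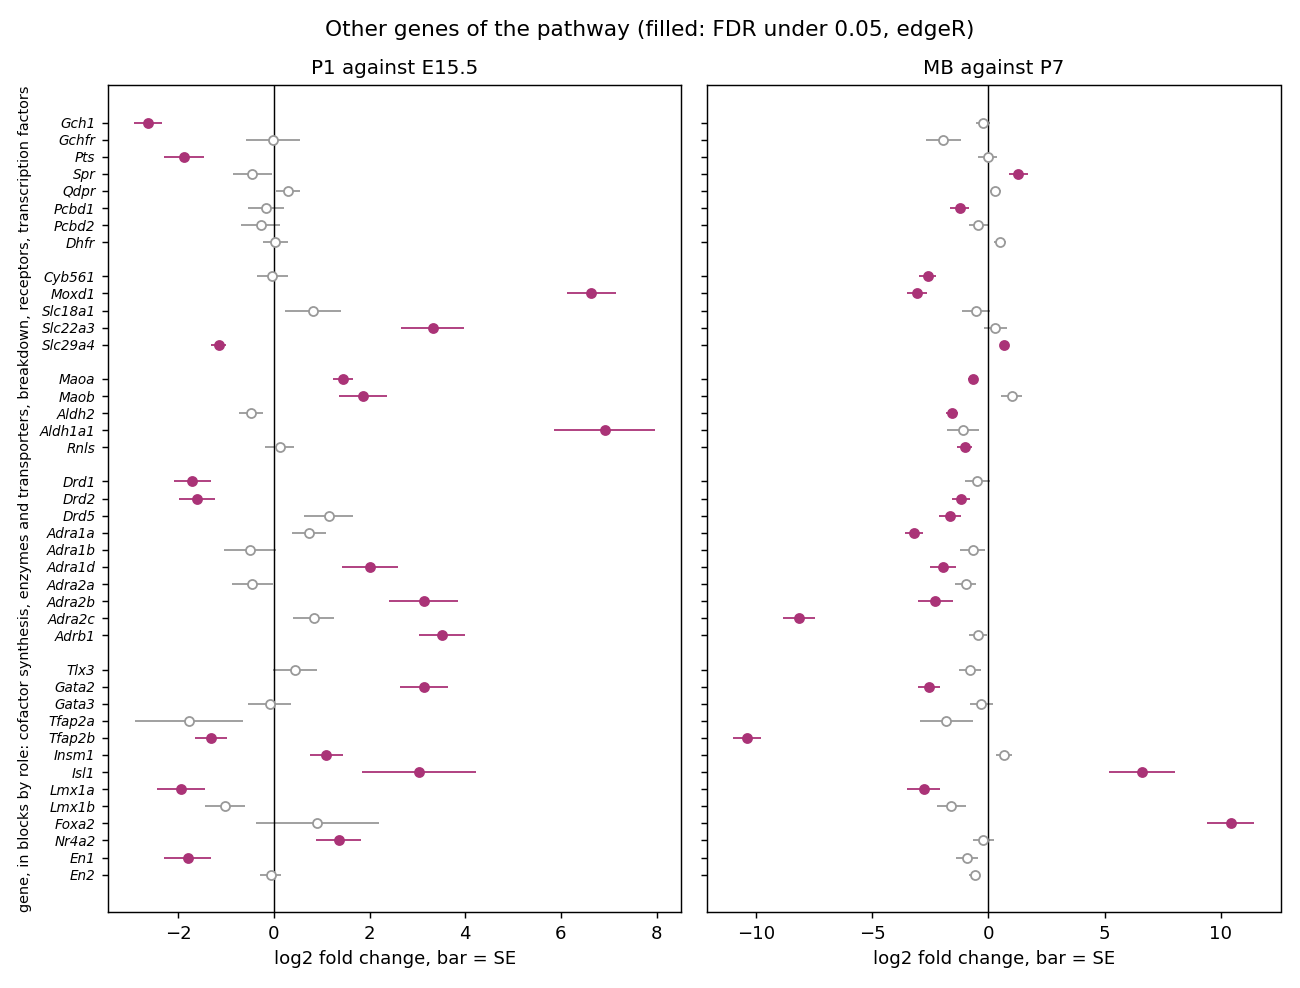
Log2 fold change (x axis) with its SE for 41 of the 45 tested pathway genes, in blocks by role, for P1 against E15.5 and MB against P7; filled points have an edgeR FDR under 0.05. Of those shown, 12 are called higher and 8 lower in P1 against E15.5, and 4 higher and 15 lower in MB against P7; the fitted value of Foxa2 (0 reads at P7) depends on the prior count and gives no size.

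The labelled cell type was checked on 12 markers of granule neuron precursors, all with reads in every group and summing to 3025 to 6734 CPM per library. Atoh1, which marks the dividing precursors, was at 129 ± 8.53 CPM at E15.5, 47.7 ± 21.0 at P1, then 30.6 ± 7.85 at P7, 11.9 ± 1.11 at P14 and 280 ± 43.0 in MB. Counts in genes ran from 12597472 in E15.5 replicate 2 to 43443132 in E15.5 replicate 3. In bulk RNA, fewer cells of a type and less RNA per cell cannot be told apart, and markers of other cells moved with several of the results above. For the marker counts below, 46.3% of all genes were called in P1 against E15.5 and 34.5% in MB against P7.

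Summed markers of catecholamine neurons elsewhere in the brain rested largely on a few genes. The 7 genes listed for the locus coeruleus summed to 53.0 to 81.7 CPM at E15.5, 85.8 to 88.1 at P1, 53.0 to 80.9 at P7, 82.5 to 93.1 at P14 and 38.2 to 44.4 in MB. At P1 against E15.5, 3 of them were called lower and 1 higher. The higher one was Maoa, at 27.5 ± 6.73 CPM at E15.5 and 74.7 ± 0.914 at P1, which was most of the P1 sum. The lower ones included Cartpt, at 16.8 ± 7.70 CPM at E15.5, 2.92 ± 2.01 at P1 and 0.0346 ± 0.0406 in MB. Prph, also lower, stood at 5.57 ± 2.83, 0.642 ± 0.259 and 0.225 ± 0.0252 CPM in these groups. In MB, where Th was highest, Dbh had 0 reads. The 10 midbrain dopaminergic markers summed to 40.2 to 75.9 CPM at E15.5 and 25.4 to 86.1 at P1. They summed to 48.7 to 56.6 at P7, 121 to 127 at P14 and 36.2 to 53.2 in MB. Their defining factor Pitx3 had at most 2 reads in any group. Of the 7 tested, 2 were called higher at P1 against E15.5, Nr4a2 and Aldh1a1. These made up most of the P14 sum, at 68.2 and 50.6 CPM on average. Another 3 were called lower. On average, Lmx1a went from 37.7 to 9.81 CPM, Slc10a4 from 3.76 to 0.430 and Drd2 from 2.21 to 0.737. In MB against P7, 1 was higher (Foxa2) and 3 were lower. Serotonergic neurons, which express Ddc and Slc18a2, were marked by Tph2 at 0.494 ± 0.270 CPM at E15.5 and 0.130 to 0.410 CPM on average in the other groups, and by Slc6a4 at 3 to 9 reads per group. The 7 cranial motor neuron markers in the tables summed to 13.03 to 16.2 CPM at E15.5, 9.34 to 12.9 at P1, 4.82 to 7.77 at P7, 4.71 to 5.66 at P14 and 37.4 to 92.0 in MB, so that they were high with Th in MB. In MB against P7, 2 of the 4 tested were higher (Slc5a7, the choline transporter, at log2 3.24 with an edgeR FDR of 4e-07, and Isl1) and 1 lower, while their defining gene Chat had 5 reads at P7 and 16 in MB, all in replicate 3. The part of these cells in the levels of the 7 genes was not tested.

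Purkinje markers (9 genes) summed to 678 to 954 CPM at E15.5, 478 to 612 at P1, 540 to 1169 at P7, 424 to 625 at P14 and 450 to 579 in MB. Most of the MB sum was Lhx1, at 353 ± 30.4 CPM. At P1 against E15.5, 3 of the 9 were called higher and 3 lower, and in MB against P7, 1 was higher and 7 lower. Members of the list ran both with and against Th. Foxp2 stood at 333 ± 67.9 CPM at E15.5, 39.3 ± 10.6 at P1, then 17.7 ± 2.82 at P7, 9.13 ± 1.45 at P14 and 82.5 ± 35.7 in MB, where it was called higher than at P7 (log2 2.22, edgeR FDR 2.88e-05). Skor2 fell at P1 (log2 -3.48, edgeR FDR 0.000234) and had 0 reads in MB. Pcp2 and Calb1 stood at 10.6 ± 6.58 and 37.1 ± 16.8 CPM at E15.5, 42.5 ± 22.5 and 155 ± 104 at P7, and 0.462 ± 0.301 and 0.188 ± 0.0490 in MB. The 7 markers of GABAergic interneurons summed to 465 to 640 CPM at E15.5, 176 to 229 at P1, 199 to 292 at P7, 115 to 175 at P14 and 5.04 to 8.33 in MB. At P1 against E15.5, 6 of these 7 were lower and 1 higher, and all 7 were lower in MB against P7.

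Of 7 markers of cerebellar nuclear and unipolar brush neurons, 5 fell at P1, where Th was low. The 7 genes summed to 258 to 584 CPM at E15.5, 138 to 177 at P1, 155 to 249.3 at P7, 178 to 190 at P14 and 114 to 197 in MB, and none was at 0 reads in any group. At P1 against E15.5, 5 were called lower and none higher, with a median log2 change of -3.80, led by Meis2 (-4.72), Lhx9 (-4.57) and Lhx2 (-4.35). In MB against P7, 4 were lower and 1 was higher, which was Lhx2 (4.17, edgeR FDR 3.93e-05). The part of Purkinje, interneuron and cerebellar nuclear cells in the levels of Th was not tested.

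Ddc and markers of vessels and connective tissue were both low at E15.5 and in MB and higher at the postnatal ages. Within a postnatal age, their libraries stood in the same order at P7 but not at P1 or P14. The 8 endothelial and mesenchymal markers, none at 0 reads in any group, summed to 15.8 to 29.4 CPM at E15.5 and 33.4 to 35.8 CPM in MB, where Ddc was lowest, and to 712 to 1035 CPM at P1, 387 to 602 at P7 and 756 to 847 at P14. All 8 were called higher at P1 against E15.5 and all 8 lower in MB against P7. From P1 to P7 mean Ddc went from 3.64 to 5.20 CPM while these markers went down. In P1 replicates 1 to 3 these markers stood at 748, 1035 and 712 CPM, so the library with the most Ddc had the lowest sum. Within the list, Cldn5 (108, 126 and 146 CPM) and Flt1 (31.8, 46.4 and 82.2) stood in the order of Ddc. Pecam1 and Cdh5 were highest in replicate 2, as were the collagen genes and Dcn, which were lowest in replicate 3. The sums at P7 were 602, 447 and 387 CPM, the order of Ddc, and at P14 they were 827, 847 and 756. The 6 oligodendrocyte markers summed to 27.4 to 39.5 CPM at E15.5, 639 to 1509 at P7, 5588 to 6032 at P14 and 63.4 to 89.4 in MB. At P1 they stood at 101, 534 and 3470 CPM in replicates 1 to 3, the same order as Ddc at 1.63, 3.10 and 6.18 CPM. The order was also that of Ddc at P7 (1509, 856 and 639 CPM) and at P14 (5588, 6032 and 5712 CPM). All 6 were called higher at P1 against E15.5 and all 6 lower in MB against P7. The part of these cells in the result for Ddc was not tested.

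**Figure D4:**
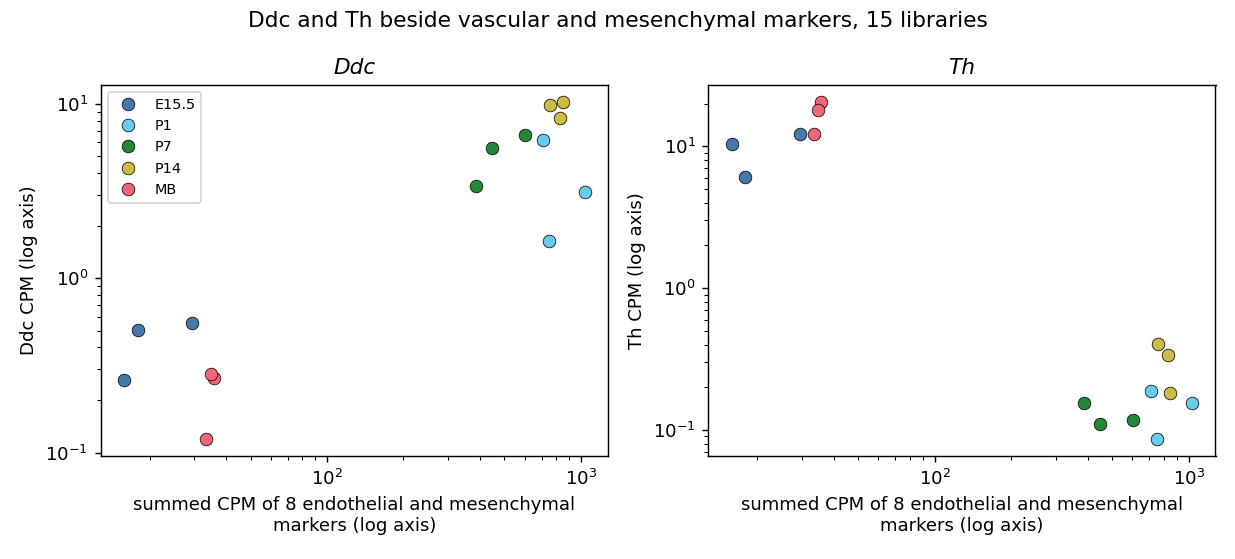
Ddc and Th in each of the 15 libraries (CPM, log axis) against the summed CPM of 8 endothelial and mesenchymal markers (log axis), coloured by group. The E15.5 and MB libraries lie at 15.8 to 35.8 CPM of the markers with low Ddc and high Th, and the postnatal libraries lie at 387 to 1035 CPM with high Ddc and low Th.

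The genes whose levels ran most like those of each of these 4 genes were listed by the Pearson correlation of log2 CPM over the 15 libraries, among 12603 genes with at least 1 CPM at E15.5. These values describe libraries that fall into groups and carry no test. For Th they were Lhx2 (0.96), Nol3 (0.95), Epha3 (0.95), Tut1 (0.95) and Hrh3 (0.94). Lhx2, a LIM homeodomain factor that is also among the cerebellar nuclear markers above, stood at 95.7, 19.1 and 18.9 CPM in the E15.5 libraries, 2.18 ± 0.615 at P1, then 3.15 ± 0.399 at P7, 3.92 ± 0.561 at P14 and 56.8 ± 20.2 in MB. Hrh3, a histamine receptor, stood at 11.4 ± 3.52 CPM at E15.5, 2.37 to 3.16 CPM on average at the postnatal ages and 14.8 ± 0.925 in MB. Both were picked for running like Th, so their high levels in the same groups follow from that choice. Within E15.5, Lhx2 was highest in replicate 1 and Th in replicate 3.

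For Ddc the list was Rgs5 (0.98), Lhfpl2 (0.98), Mag (0.97), Sorbs3 (0.97) and Ppp1r16b (0.97). Rgs5 is a marker of pericytes and Mag a myelin gene, and Rgs5 ran from 12.2 ± 7.82 CPM at E15.5 to 551 ± 65.6 at P14 and 8.09 ± 3.29 in MB. For Slc6a2 it was Ica1 (0.91), Gm10244 (0.88), Ccdc136 (0.88), Mturn (0.88) and Rragc (0.87). Slc18a2 had no close match, with Pcdh19 (0.79), Chordc1 (0.77), Ubxn2b (0.77), D2hgdh (0.76) and Timmdc1 (0.75) at the top. Among the genes themselves, r was -0.90 between Th and Ddc, 0.80 between Th and Slc6a2 and 0.18 between Th and Slc18a2.

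In the mm9 build of the deposited tables, Th (ENSMUSG00000000214) lies on chromosome 7 from 150078657 to 150085919 on the minus strand, in 13 exons. Its nearest genes in the transcript table were Gm6471 (40485 bases away) and Ins2 (193241) on the side of lower coordinates and Ascl2 (66807) and Tspan32 (105031) on the other. None of the 4 reached the level of Th at E15.5 or in MB. All held few reads (0 to 70 per group), which limits any reading of their patterns. In the order E15.5, P1, P7, P14 and MB, Ins2, the insulin gene, had 2, 47, 11, 70 and 0 reads, and Gm6471 had 0, 10, 2, 10 and 0. Ascl2 had 13, 23, 10, 22 and 26, and Tspan32 had 3, 31, 43, 31 and 50. Ddc (ENSMUSG00000020182) lies on chromosome 11 from 11714106 to 11790404, and Slc6a2 (ENSMUSG00000055368) on chromosome 8 from 95484946 to 95525566. Slc18a2 (ENSMUSG00000025094) lies on chromosome 19 from 59335368 to 59370502. It shares 3674 exon bases with a transcript on the same strand that the tables pair with no gene, and its gene and transcript tables differed by at most 5 reads in a library.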

How the data were processed

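Poly(A) RNA was measured in 15 libraries. The authors deposited raw read counts per gene, per transcription start site model and per transcript. Per the submitters' processing notes, Trimmomatic, TopHat, StringTie, HTSeq and mm9 were used; versions, roles and the strand setting are not given in the sources used here. Symbols came from the RefSeq table by Ensembl gene ID (20358 of 21889 matched). The 5 summary lines of each gene table, which held 44.6% to 60.5% of its records, were left out.

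Counts per gene were tested with edgeR 4.0.16 in R 4.3.3: TMM scaling, filterByExpr (minimum count 10, minimum total 15), 1 mean per group over all 15 libraries (10 residual degrees of freedom), the quasi-likelihood F-test, and Benjamini-Hochberg adjustment over 15259 genes, called at an FDR under 0.05. The test was tested on simulated data. CPM are counts over TMM-scaled library sizes. A floor is 3 reads over a group. Library totals ran from 12597472 to 43443132, so 1 read in the shallowest library weighs more than in the deepest, and genes of a few reads carry wide counting error. Replicates of each group differed by more than sampling noise.

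The 7 genes, the pathway roles and the marker lists were chosen with earlier results of these data known. Named in any case were the 7 genes, Nr4a2, Hand2, Gata3, Gch1, Maoa and defining markers of other cells. Up to 3 called genes per role and direction with the largest fold were also named, with the 5 genes most like each tested gene and the 2 nearest genes on each side of Th. Some genes that this rule names are not reported here, though they enter the counts of the lists. Inppl1, Foxp2, Skor2, Lhx1, Slc5a7, the single endothelial and mesenchymal markers at P1 and Rgs5's levels were chosen after their values were seen. The alternatives were DESeq2 1.42.0, no filter, the replicate number as a block, leaving out each library, the compared groups alone, the transcript table, libraries of 1 counting set and other prior counts.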

Additional observations from a re-analysis of the deposited data

How the results depend on the processing

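The gene tables fell into 2 counting sets by Tsnax, a gene that 6 libraries count almost no reads for and 9 count nearly all. Ddc and Slc6a2 in MB against P7 kept their direction and call under every alternative run, with leave-one-out log2 ranges of -4.73 to -4.23 and 1.87 to 3.52. In 1 counting set, at -5.36 and 4.28, they rest on MB replicate 1 alone, which is assumed to vary like the other groups. Th there ran from 6.86 to 7.22 over the libraries left out. Slc18a2 there turned sign without a call, at 0.0094 with the groups compared alone and -0.19 to 0.16 over the libraries left out. Ddc in P14 against P1 passed with DESeq2 (1.37), the replicate block (1.46), the groups compared alone (1.36) and 1 counting set (1.35), and ran from 1.02 to 1.99 over the libraries left out. Th in P14 against P1 has no value with the groups compared alone, where the filter removed it.

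The count of genes called in P14 against P1 was the least stable. Higher genes numbered 554, and 1211 with DESeq2, 1919 with the groups compared alone, 2180 in 1 counting set and 2 to 1479 over the libraries left out. Lower genes numbered 810, and 2170, 2534 and 145 to 1235 for the last 3 of these. In MB against P7, 2096 genes were higher, and 1343 with the groups compared alone, where 2 pathway genes were higher and 8 lower. The causes were not tested. Against E15.5, Th was at -5.35 (P1) and -4.33 (P14) in 1 counting set, where E15.5 replicate 2, the library with the least Th at E15.5, stands alone, and at -5.63 (P7) with a prior count of 2. In the transcript table Phox2a stood at 2.12 to 6.71 CPM on average by group.

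The replicate numbers do not pair the libraries: deviations of same-numbered libraries correlated at -0.31 to 0.33, over 0.1 in 3 of 15 pairs, and the labels name no shared source. The replicate block changed no other call of these genes. Depth limits Dbh, Slc6a3, Phox2a and postnatal Th, which rest on few reads.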
